A study of Mus musculus with 8 samples.

Results

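Genes of mitosis and of the kinetochore were compared between the lungs of wild-type and Ggps1 knockout mice, all C57BL/6 and all taken 12 h after lipopolysaccharide (LPS), the bacterial outer-membrane component that injures the lung. The 50 genes were chosen by symbol, as the array names them, among 36095 gene names. By role they were divided into G2/M cyclins and kinases, proliferation markers, the chromosomal passenger complex, the kinetochore and the spindle checkpoint. The other roles were partners of the anaphase-promoting complex (APC/C) with separase, spindle kinesins, and spindle-associated proteins. The wild-type group had 4 mice given LPS, and the knockout group had 4 mice given LPS that lacked GGPPS1 (gene Ggps1, geranylgeranyl diphosphate synthase, which makes the lipid anchor of many small GTPases) in the lung only. The sources used here do not give the promoter or Cre that drove the deletion, the part of Ggps1 removed, or the age and sex of the mice. Mice without LPS were not analysed here. RNA from the whole lung of each mouse was read on its own single-colour Agilent array.

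A cell that divides switches on a shared set of genes late in its cycle. Cyclins A and B activate the kinase Cdk1, the condensed chromosomes are caught by spindle microtubules at their kinetochores, the spindle checkpoint holds the cell until every chromosome is attached, and the APC/C then marks cyclin B and securin for destruction so that separase can free the sister chromatids. Most of these genes are repressed in resting cells by the DREAM complex and activated in G2 by FoxM1 and B-Myb with MuvB. In adult lung few cells divide, and endothelial, epithelial and myeloid precursor cells can enter the cycle after injury.

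Signals are log2 values of the processed spot signal after subtraction of the array's 75th percentile, which is therefore 0, and a difference is knockout minus wild-type on that log2 scale. The 4 values of a genotype are listed in the order of replicates 1, 2, 3 and 4, with ± giving the SE of a difference. Levels of different probes are not comparable with each other, so only samples are compared. Between 61.5% and 65.3% of the spots of a wild-type array and between 58.1% and 61.6% of those of a knockout array were well above background. All 8 arrays lay on 1 slide, wild-type in row 1 and knockout in row 2, so genotype and slide row cannot be told apart. Lung markers were bright on every array, with the surfactant gene Sftpc at 8.92 to 9.29. Ggps1 itself read 1.26, 1.34, 1.26 and 1.40 in the wild-type and 1.32, 1.24, 1.22 and 1.24 in the knockout samples, a difference of -0.06 ± 0.068 (SE; limma, adjusted p = 0.613), so this probe does not separate the genotypes. The sources used here do not say whether the probe lies in the deleted part.

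Most of the 46 mitotic genes that were measured had slightly more signal in the knockout lungs. The difference was above 0 for 43 of 46, beside 45.7% of all 24437 genes tested, and the median difference was 0.35 (1.28-fold), beside -0.027 over all genes. At an unadjusted p under 0.05, 22 of 46 were higher, beside 10.2% of all genes, and 1 was lower, beside 13.4% of all genes. In 15 of 46, all 4 knockout values lay above all 4 wild-type values, beside 6.1% of all genes, and in 1 all lay below, beside 9.22%. With arrays centred on their median, 6 members were apart upwards and 39 of 46 were higher, and Hmmr, Kif23, Ube2c and Pttg1 were then below 0. No single member passed the test over all genes (limma, Benjamini-Hochberg adjusted p under 0.05: 0 of 46, beside 0.0614% of all genes, 0.0327% that rose and 0.0286% that fell), and the smallest adjusted p was 0.0627. All 46 were well above background on all 8 arrays. The differences ran from -0.30 to 0.74, so the largest was 1.66-fold. In whole-lung RNA, more dividing cells and more mitotic RNA per dividing cell cannot be told apart.

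The members varied together between mice, and the wild-type samples differed most. Relative to the mean of each gene over the 8 samples, the median member lay at -0.32, -0.49, 0.06 and -0.0033 in the wild-type samples, and at 0.31, 0.20, 0.20 and 0.025 in the knockout samples. Wild-type replicate 2 held the lowest of the 8 values for 32 of 46 members and wild-type replicate 1 for a further 10, while knockout replicate 1 held the highest for 20. In 34 members both of these wild-type samples lay below both of the other wild-type samples. The spread (SD) was larger in wild-type than in knockout samples for 37 of 46 members, beside 44.4% of all genes, with median SDs of 0.28 and 0.17. After the group means were removed, the mean Pearson correlation over the 1035 pairs of members was 0.53 across the 8 samples, beside 0.0069 over pairs of all genes; this is a description, since the members share the arrays and their scaling. Without wild-type replicate 2 the median difference was 0.23, and without wild-type replicate 1 it was 0.30. The members higher at an unadjusted p under 0.05 then numbered 14 and 13, beside 7.48% and 10.2% of all genes. That number was also 14 without knockout replicate 1, beside 8.47% of all genes.

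**Figure D1:**
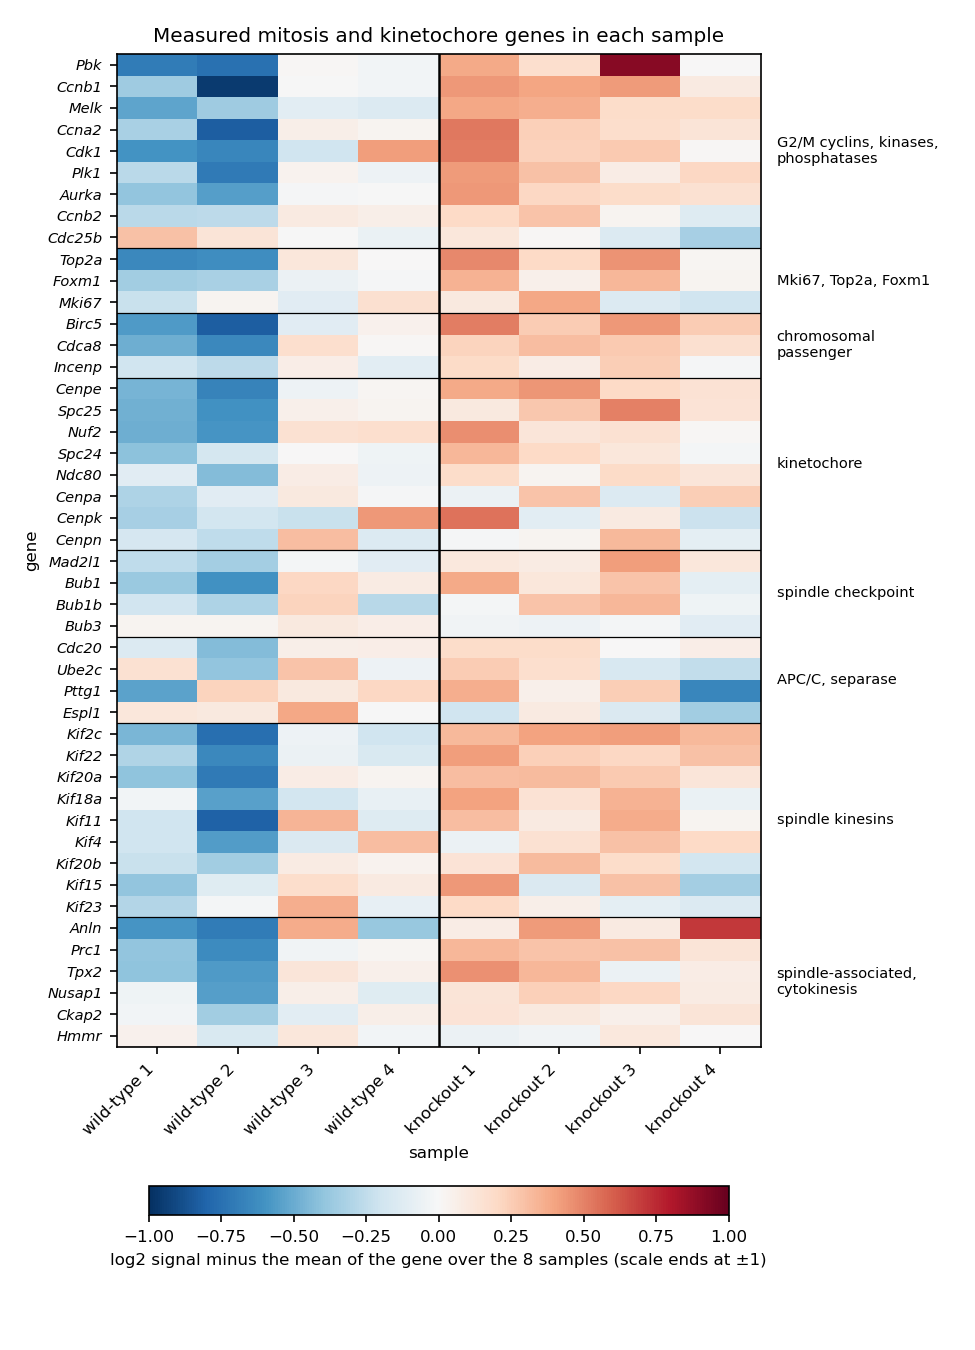
Heat map of the 46 measured members (rows, by role) in the 8 samples (columns), with colour giving log2 signal minus the mean of the gene over the 8 samples. Wild-type replicates 1 and 2 are blue through most rows, wild-type replicates 3 and 4 lie near the gene means, and knockout replicates 1 to 3 are mostly red.

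The stretch before the start site is shown for the 4 members with the smallest p that match a promoter table of RefSeq (build GRCm38.p6). That table held 41 of the 50 members. Capitals mark the letters TTTGAA or TTTAAA (those of the cell cycle genes homology region, CHR, through which DREAM and MuvB act), CCAAT (bound by NF-Y) and GGCGGGA (an E2F site), searched on both strands. TTTAAA reads the same on both, and no marked letters of different motifs overlap. The stretches are the 250 bases upstream of the start sites of Kif2c (chr4:117178773-117179022, minus strand), Melk (chr4:44300667-44300916, plus strand), Kif22 (chr7:127042421-127042670, minus strand) and Birc5 (chr11:117848987-117849236, plus strand).
Kif2c: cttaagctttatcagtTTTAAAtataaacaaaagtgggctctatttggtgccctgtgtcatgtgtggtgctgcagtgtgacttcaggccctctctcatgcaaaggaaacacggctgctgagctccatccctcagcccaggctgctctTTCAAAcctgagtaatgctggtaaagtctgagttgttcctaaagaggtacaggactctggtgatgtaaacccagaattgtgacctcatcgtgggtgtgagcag
Melk: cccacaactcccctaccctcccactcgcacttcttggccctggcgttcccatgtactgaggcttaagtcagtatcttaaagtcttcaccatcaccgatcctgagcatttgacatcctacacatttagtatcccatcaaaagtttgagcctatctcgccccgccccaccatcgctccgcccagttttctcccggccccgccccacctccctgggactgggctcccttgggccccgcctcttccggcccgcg
Kif22: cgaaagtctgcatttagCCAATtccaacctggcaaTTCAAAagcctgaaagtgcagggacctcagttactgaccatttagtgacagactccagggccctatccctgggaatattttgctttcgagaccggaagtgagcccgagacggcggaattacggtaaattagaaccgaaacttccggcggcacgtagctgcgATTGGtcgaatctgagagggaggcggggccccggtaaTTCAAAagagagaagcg
Birc5: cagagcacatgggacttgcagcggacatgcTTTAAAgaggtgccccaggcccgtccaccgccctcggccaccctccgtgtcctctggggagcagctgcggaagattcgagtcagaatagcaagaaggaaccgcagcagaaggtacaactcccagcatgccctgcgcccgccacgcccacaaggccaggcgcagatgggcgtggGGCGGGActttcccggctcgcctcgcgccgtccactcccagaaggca
Kif22 has CCAAT letters at -54 and CHR letters at -17 from the start site, with a further pair at -233 and -215. Kif2c has CHR letters alone, at -234 and -103, Birc5 has them at -220 with the E2F letters at -47, and Melk has none of the 3. Over the table's windows of 300 bases around the start, the CHR letters stood in 75.6% of the 45 member promoters and in 27.6% of all 32851. CCAAT stood in 73.3% and 37.4%, and GGCGGGA in 28.9% and 11.3%. A match describes the letters of this window and is not evidence of a bound site. Whether these letters go with the variation between samples or with the differences between genotypes was not tested.

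G2/M cyclins and kinases showed the largest median of the roles with more than 3 measured genes, 0.51 over 9 of 10 genes (1.43-fold). Of these 9, 8 were higher in the knockout lungs, 5 without overlap of the groups, and 0 passed (limma, with 6 higher at an unadjusted p under 0.05). Over all genes, 6.1% were apart upwards, and 10.2% were higher and 13.4% lower at that level. These shares stand beside the counts of this role and of the roles that follow. Melk, a kinase that is transcribed in dividing and progenitor cells, read -3.08, -2.91, -2.65 and -2.68 in the wild-type and -2.16, -2.18, -2.36 and -2.37 in the knockout lungs. Every knockout sample lay above every wild-type sample, by 0.56 ± 0.12 on average (SE; limma, adjusted p = 0.0633). Ccnb1, the mitotic cyclin B1, read -1.31, -1.91, -0.96 and -0.99 in the wild-type and -0.52, -0.56, -0.53 and -0.87 in the knockout lungs. The groups did not overlap, and its difference was 0.67 ± 0.21 (SE; adjusted p = 0.123). Its partner, the kinase Cdk1, read -3.21, -3.27, -2.81 and -2.20 in wild-type and -2.09, -2.38, -2.35 and -2.60 in knockout samples, and here wild-type replicate 4 stood among the knockout samples (0.51 ± 0.24, adjusted p = 0.238). A dimmer Cdk1 probe differed by -0.06, and the mean of both gave 0.23. That dimmer probe was well above background on 3 wild-type and 0 knockout arrays. It thus passed the background filter through the wild-type group alone.

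The Aurora A and polo kinases were also higher in every knockout sample. Aurka, which builds the spindle poles, read -0.37, -0.52, 0.014 and 0.023 in the wild-type and 0.46, 0.24, 0.21 and 0.18 in the knockout lungs. Plk1, the polo-like kinase of mitotic entry, read 0.45, 0.012, 0.75 and 0.67 in wild-type and 1.14, 1.01, 0.79 and 0.92 in knockout samples. In both genes the groups were apart, by 0.48 ± 0.14 for Aurka and 0.50 ± 0.17 for Plk1 (SE; adjusted p = 0.108 and 0.139), and for both wild-type replicate 2 was the lowest sample. Ccna2 (0.53 ± 0.20) and Pbk (0.73 ± 0.25) differed by similar amounts, and Ccnb2 by 0.19 ± 0.13 (SE). Cdc25b, a phosphatase that activates Cdk1, went the other way without passing: it read 1.26, 1.1, 0.97 and 0.90 in the wild-type and 1.08, 0.98, 0.84 and 0.64 in the knockout samples, which overlapped (-0.17 ± 0.12, adjusted p = 0.411). The Cdc25b difference was -0.092 without knockout replicate 4 and -0.11 without wild-type replicate 1. Cdc25c was well above background on 1 array of each group only and was not tested.

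Of the general proliferation genes, Top2a and Foxm1 were higher and Mki67 was close to equal. Top2a, the topoisomerase that untangles replicated chromosomes, read -1.72, -1.69, -0.96 and -1.06 in the wild-type and -0.59, -0.87, -0.62 and -1.05 in the knockout lungs. Knockout replicate 4 lay among the upper wild-type samples, and the difference was 0.57 ± 0.21 (SE; adjusted p = 0.156). Foxm1, the transcription factor that drives the G2/M genes, read -1.75, -1.73, -1.45 and -1.41 in wild-type and -1.05, -1.35, -1.07 and -1.37 in knockout samples, with the groups just apart (0.37 ± 0.12, adjusted p = 0.128). Mki67, which encodes the Ki-67 antigen used to count cycling cells, read 2.11, 2.36, 2.23 and 2.49 in the wild-type and 2.43, 2.72, 2.20 and 2.14 in the knockout samples. These groups overlapped throughout, with a difference of 0.075 ± 0.15 (SE; adjusted p = 0.785), and a further Mki67 probe gave 0.08. The Mki67 difference was -0.042 without knockout replicate 2, 0.014 without wild-type replicate 1, and 0.13 to 0.15 without wild-type replicate 4, knockout replicate 3 or knockout replicate 4.

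**Figure D2:**
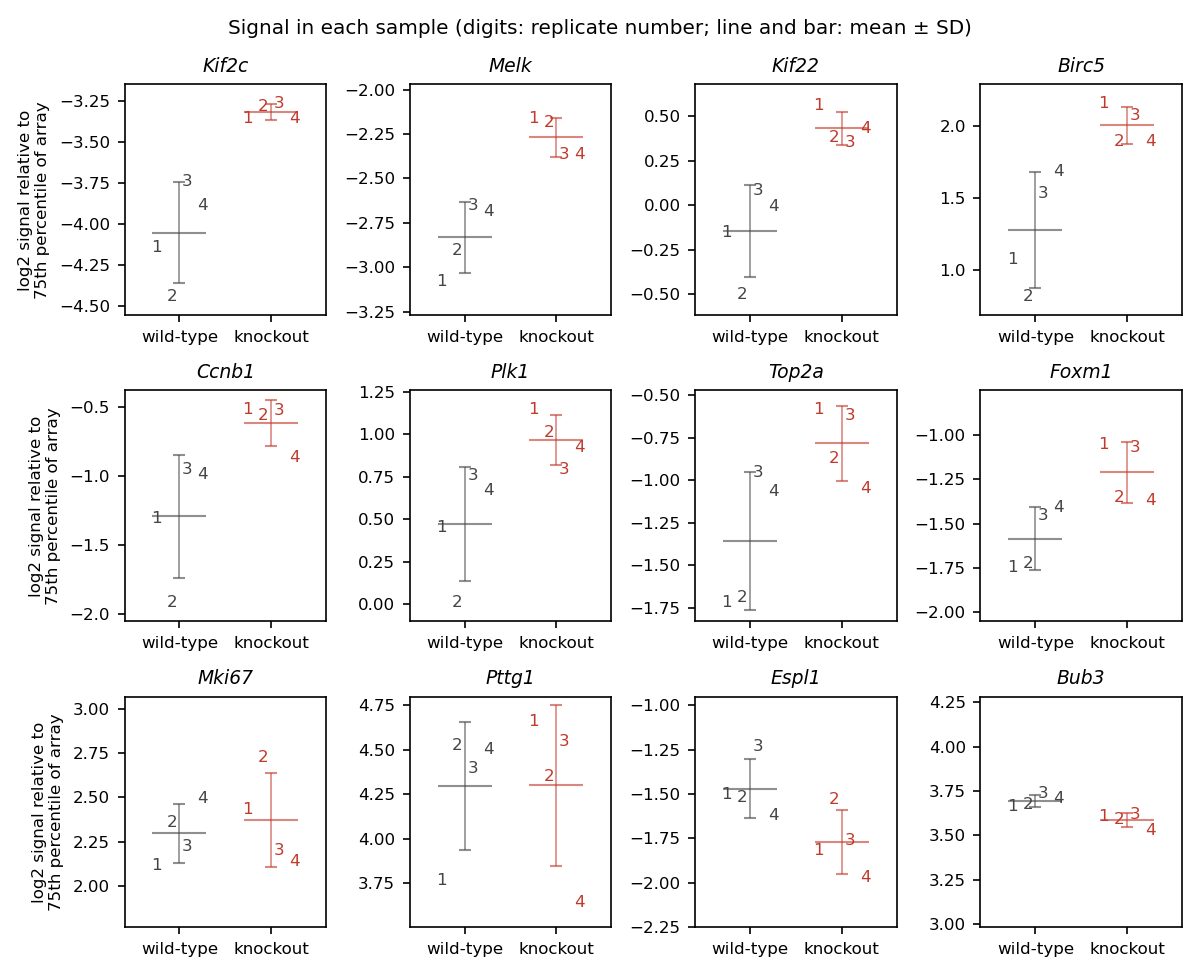
Log2 signal above or below the array's 75th percentile (vertical axes, a separate range for each gene) in wild-type and knockout samples for 12 members; digits are replicate numbers, and the line and bar are the mean ± SD of 4 samples. Kif2c, Melk, Kif22, Birc5, Ccnb1, Plk1 and Foxm1 have every knockout digit above every wild-type digit, while Mki67 and Pttg1 overlap and Bub3 lies lower in all knockout samples.

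The chromosomal passenger complex corrects wrong attachments at the inner centromere and later acts at the midzone. Its 3 measured subunits were all higher in the knockout lungs (median 0.47), 3 of 3 at an unadjusted p under 0.05 and 0 of 3 past the threshold (limma). Birc5, or survivin, read 1.07, 0.82, 1.53 and 1.69 in the wild-type and 2.16, 1.89, 2.07 and 1.90 in the knockout lungs. The groups were apart by 0.73 ± 0.19 (SE), or 1.66-fold (adjusted p = 0.0911), and its other 2 probes differed by 0.73 and 0.52. Cdca8, or borealin, read 0.36, 0.21, 1.01 and 0.86 in wild-type and 1.07, 1.15, 1.11 and 1.01 in knockout samples, where wild-type replicate 3 overlapped the knockout range (0.47 ± 0.18, adjusted p = 0.169). Incenp, the scaffold, differed by 0.25 ± 0.098 (SE). The kinase of the complex, Aurkb, did not stand well above background on a single array of either group, so it has no value here.

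All 8 measured kinetochore genes were higher, by a median of 0.29 (1.22-fold), with 3 at an unadjusted p under 0.05 and 0 past the threshold (limma). Cenpe, the motor that carries chromosomes to the spindle equator, read -0.71, -0.92, -0.29 and -0.22 in the wild-type and 0.14, 0.19, -0.045 and -0.10 in the knockout lungs, with the groups apart (0.58 ± 0.17, SE; adjusted p = 0.103). All 4 subunits of the Ndc80 complex, the microtubule-binding part of the kinetochore, were measured. Spc25 read -0.61, -0.74, -0.077 and -0.097 in wild-type and -0.033, 0.14, 0.37 and 0.01 in knockout samples, again apart (0.50 ± 0.18, adjusted p = 0.15). Nuf2 (0.38 ± 0.20), Spc24 (0.31 ± 0.12) and Ndc80 (0.27 ± 0.12, SE) were higher on average with overlapping groups. Of the 8 measured members, those of the inner kinetochore differed least. Cenpa, the centromeric histone, differed by 0.17 ± 0.13, Cenpk by 0.15 ± 0.22 and Cenpn by 0.12 ± 0.15 (SE). Further Cenp genes, outside the members, ran from -0.13 ± 0.093 (Cenpt) to 0.75 ± 0.19 (Cenpi, SE). Cenpf stood well above background on 0 of 8 arrays.

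Of the 4 measured spindle checkpoint genes 3 were higher and 1 lower, with a median of 0.31, 1 higher at an unadjusted p under 0.05 and 0 past the threshold (limma). Mad2l1, which inhibits the APC/C, read -0.56, -0.65, -0.33 and -0.42 in the wild-type and -0.20, -0.22, 0.11 and -0.19 in the knockout samples, apart by 0.36 ± 0.11 (SE; adjusted p = 0.111). Its 2 dimmer probes differed by -0.52 and -0.41, so with the mean of all its probes the direction turned, to -0.19. The probe at -0.52 was well above background on 3 wild-type arrays and 1 knockout array. It thus passed the background filter through the wild-type group alone. The probe at -0.41 was well above background on 4 wild-type and 3 knockout arrays. Bub1b, or BubR1, read -1.75, -1.86, -1.34 and -1.84 in wild-type and -1.57, -1.27, -1.22 and -1.60 in knockout samples, which overlapped (0.28 ± 0.15, adjusted p = 0.29), and Bub1 differed by 0.34 ± 0.20 (SE). Bub3, the adaptor of both, which also acts outside mitosis, was the 1 member whose groups were apart in the other direction. It read 3.66, 3.67, 3.74 and 3.71 in the wild-type and 3.60, 3.59, 3.62 and 3.53 in the knockout lungs, a small and tight difference of -0.11 ± 0.062 (SE; adjusted p = 0.319). Ttk, the Mps1 kinase, stood well above background on 0 of 8 arrays.

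Separase and genes that act with it or with the APC/C were the role with the smallest median, 0.004 over 4 of 4 genes. None of the 4 encodes a core subunit of the APC/C. In limma 0 passed the threshold, and at an unadjusted p under 0.05 0 were higher and 1 was lower. Cdc20, the activator of the APC/C, read 0.90, 0.60, 1.09 and 1.1 in the wild-type and 1.22, 1.22, 1.04 and 1.1 in the knockout lungs, which overlapped (0.22 ± 0.12, SE; adjusted p = 0.303), and without wild-type replicate 2 the difference was 0.12. Ube2c, its ubiquitin-conjugating enzyme, differed by 0.0055 ± 0.18 and Pttg1, or securin, by 0.0026 ± 0.26 (SE). A further probe gave 0.0068 for Ube2c and -0.015 for Pttg1. Espl1, or separase, had the largest difference below 0 of all members. It read -1.50, -1.52, -1.23 and -1.62 in wild-type and -1.82, -1.53, -1.76 and -1.97 in knockout samples, with knockout replicate 2 inside the wild-type range, and was lower by an unadjusted p under 0.05 only (-0.30 ± 0.12, adjusted p = 0.187).

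All 9 spindle kinesins were higher, with a median of 0.40 (1.32-fold), 4 at an unadjusted p under 0.05 and 0 past the threshold (limma). Kif2c, or MCAK, which takes microtubules apart at centromeres, had the largest difference and the smallest p of the members. It read -4.14, -4.44, -3.74 and -3.88 in the wild-type and -3.36, -3.28, -3.27 and -3.36 in the knockout lungs, so the knockout samples lay within 0.1 of each other and above every wild-type sample (0.74 ± 0.15, SE; adjusted p = 0.0627). Its dimmer probe differed by 1.51, with knockout replicate 3 at -1.42 against -4.21 to -3.80 in the rest of its group and only 2 of 4 wild-type arrays well above background, so the mean of both probes gave 1.12. With normexp background correction the difference was 0.43 and passed (limma, adjusted p = 0.0467). In that setting 512 of all 24437 genes passed, beside 15 in the main setting. Kif22, a chromosome arm motor, read -0.16, -0.50, 0.085 and -0.0047 in wild-type and 0.56, 0.38, 0.35 and 0.43 in knockout samples, apart by 0.58 ± 0.13 (adjusted p = 0.0754).

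Other kinesins differed less clearly. Kif20a, a motor of the central spindle, was apart by 0.50 ± 0.18 and Kif18a, a length regulator, differed by 0.41 ± 0.15 with overlap (SE). Kif11, or Eg5, which pushes the spindle poles apart, read -4.08, -4.70, -3.54 and -4.01 in the wild-type and -3.57, -3.80, -3.51 and -3.86 in the knockout lungs. Wild-type replicate 2 was far the lowest and wild-type replicate 3 lay beside the highest knockout sample, and the difference was 0.40 ± 0.23 (SE; adjusted p = 0.316). Without wild-type replicate 2 it was 0.19. Kif4 (0.29 ± 0.18), Kif20b (0.23 ± 0.14), Kif15 (0.12 ± 0.20) and Kif23 (0.011 ± 0.15, SE) completed the group.

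All 6 spindle-associated and cytokinesis genes were higher, with a median of 0.37 (1.29-fold), 3 at an unadjusted p under 0.05 and 0 past the threshold (limma). Prc1, which bundles the midzone microtubules, read -0.40, -0.64, -0.041 and 0.016 in the wild-type and 0.32, 0.28, 0.29 and 0.12 in the knockout lungs and was apart by 0.52 ± 0.15 (SE; adjusted p = 0.105). Anln, or anillin, the scaffold of the contractile ring, read -0.80, -0.91, 0.16 and -0.59 in wild-type and -0.14, 0.21, -0.12 and 0.49 in knockout samples. Its groups overlapped through wild-type replicate 3 (0.65 ± 0.25, adjusted p = 0.178). Nusap1, a microtubule bundler, was apart by 0.33 ± 0.13, and Tpx2, the activator of Aurora A, differed by 0.40 ± 0.19 with overlap (SE). Ckap2 differed by 0.21 ± 0.096 and Hmmr by 0.0077 ± 0.081 (SE).

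**Figure D3:**
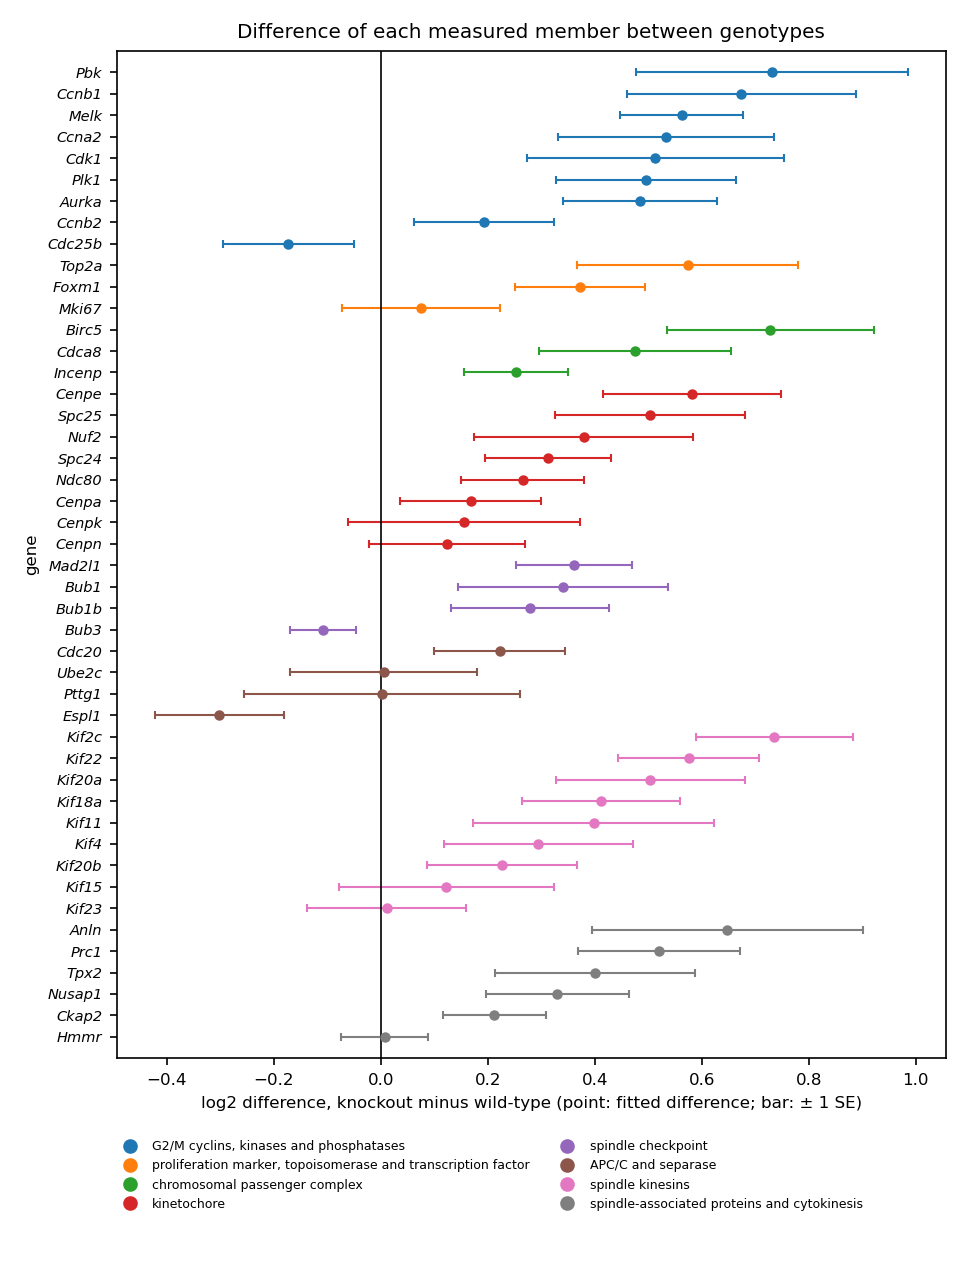
Log2 difference between knockout and wild-type samples (horizontal axis) for the 46 measured members, coloured by role; points are the fitted differences and bars ± 1 SE, with 4 samples per group. Points lie right of 0 for 43 members, and the 3 left of it are Espl1, Cdc25b and Bub3.

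The lists of other cell cycle genes had smaller medians. Of 42 further mitotic genes measured, 29 were higher (median 0.21), 13 at an unadjusted p under 0.05, and 2 were lower at that level. In 12 of the 42 the groups were apart upwards, beside 6.1% of all genes, and in 2 downwards, beside 9.22%. The 12 included Nek2, a centrosome kinase, which read -0.96, -0.69, -0.68 and -0.93 in the wild-type and 0.48, 0.91, 0.34 and 1.53 in the knockout lungs. This difference of 1.63 ± 0.25 (SE; adjusted p = 0.0567) exceeded that of every member. Ccnf (0.62 ± 0.13) and the kinetochore gene Cenpw (0.49 ± 0.11) were also apart upwards. Hjurp, the chaperone that loads Cenpa, was apart downwards, at -1.69, -1.63, -1.56 and -1.66 in the wild-type and -2.29, -1.95, -2.26 and -2.72 in the knockout samples (-0.67 ± 0.15, adjusted p = 0.0745).

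Condensin and cohesin genes had a median of 0.099 (11 of 16 higher, 3 and 1 at an unadjusted p under 0.05 upwards and downwards), with Smc3 at 0.25 ± 0.077, Ncaph at 0.36 ± 0.12, Ncaph2 at 0.22 ± 0.087 and Nipbl at -0.26 ± 0.11 (SE). Genes of the G1/S transition and of DNA replication had a median of 0.077 (24 of 38 higher, 6 and 1 at that level). Among them the atypical E2F repressors E2f7 (0.80 ± 0.19) and E2f8 (0.56 ± 0.16) and the replication factor Mcm10 (0.36 ± 0.10) were apart upwards, and Rrm2, a ribonucleotide reductase subunit, differed by 0.72 ± 0.22 (SE). Genes of DREAM, MuvB and the pocket proteins were higher in 4 of 12 cases (median -0.075, 1 and 2 at that level). The activator Mybl2, or B-Myb, differed by 0.46 ± 0.15, and the restraining Rb1 by -0.47 ± 0.14, E2f4 by -0.24 ± 0.10 and Rbl1 by -0.17 ± 0.093 (SE). Of the CDK inhibitors and arrest genes, 6 of 17 were higher (median -0.12, 1 and 3 at that level). Over all genes 45.7% were higher, and 10.2% were higher and 13.4% lower at that level, so the counts of the DREAM and arrest lists lie near those of all genes. The smallest p in that list belonged to Sesn1 (0.40 ± 0.08), Trp53 (-0.34 ± 0.086), Btg2 (-0.48 ± 0.15) and Cdkn1c (-0.51 ± 0.22, SE). No gene of these 5 lists passed over all genes (limma, smallest adjusted p = 0.0567). Whether the members differ from these lists was not tested.

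**Figure D4:**
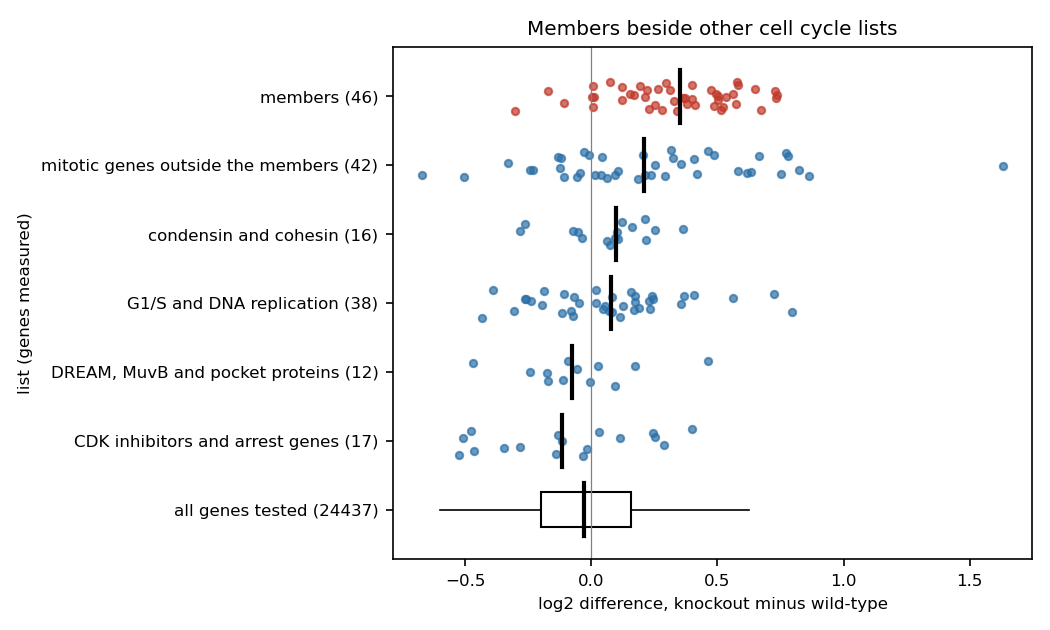
Log2 difference between knockout and wild-type samples (horizontal axis) for the members and for 5 further cell cycle lists, a point for each gene, and for all genes tested as a box (25th to 75th percentile) with whiskers to the 5th and 95th percentile; vertical bars are medians. The members' median of 0.35 lies right of those of the other lists, of which the further mitotic genes come closest at 0.21.

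Markers of several cell types also differed on average between the groups, and their part in the differences of the mitotic genes was not tested. No marker gene in this or the next paragraph passed the threshold over all genes (limma, smallest adjusted p = 0.0567). Summed over its 6 measured genes, the multiciliated cell signal ranged from 13.4 to 18.8 multiples of the 75th percentile in wild-type samples. In knockout samples it ranged from 19.7 to 27.6. All 6 of 6 genes were higher, among them Foxj1 (0.59 ± 0.13, SE), a regulator of these cells. Mcidas and Ccno of the same list differed by only 0.15 ± 0.29 and 0.0089 ± 0.20 (SE). The 6 airway secretory and basal genes summed to 778 to 951 and 1080 to 1115, with 6 of 6 higher. Among these 6, Trp63 differed by 0.052 ± 0.095 and Krt5 by 1.34 ± 1.35 (SE). Monocyte and macrophage genes were lower in 7 of 7 cases (557 to 588 against 414 to 513). Ly6c1, the brightest of them, differed by only -0.0046 ± 0.11 (SE). Each sum in this and the next paragraph weighs its brightest genes most, so it describes signal and is not a measure of cell number. Cardiac muscle genes, higher in 8 of 8, summed to 19.6, 394, 61.4 and 63.6 in the wild-type and to 155, 543, 82.2 and 493 in the knockout samples. The 4 fat genes, higher in 4 of 4, summed to 0.39 to 8.16 and 1.19 to 27.8. Of these, Lep was well above background on 0 wild-type and 3 knockout arrays, and Adipoq and Plin1 on 2 and 3. These genes passed the background filter through the knockout group alone, so their direction is partly set by that filter.

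Blood cell precursors, of which many divide, were read by further lists whose sums overlapped between the groups. The brightest genes on average were Hba-a1 in the erythroid list and Chil3 in the neutrophil precursor list. Chil3 also stands in the alveolar macrophage list. Of thymocyte and T cell genes 1 of 7 was higher (sums of 9.25 to 12.3 and 7.92 to 10.5), and the thymocyte genes Rag1, Rag2 and Ptcra did not reach the background filter. Erythroid genes were higher in 0 of 6 cases (277 to 622 and 337 to 403), with Klf1 and Rhag below that filter, and B cell genes in 0 of 5 (7.0 to 10.1 and 5.22 to 8.69), with Pax5 and Igll1 below it. Neutrophil precursor genes were higher in 7 of 10 cases (169 to 257 and 137 to 270) and mature neutrophil genes in 2 of 6 (868 to 994 and 912 to 999). In these 5 lists, 1 of 6 erythroid and 2 of 6 mature neutrophil genes were apart downwards, and 0 in the other lists of the 5. Over all genes 9.22% were apart downwards, the share to set beside these and the following genes. Of alveolar macrophage genes 2 of 7 were higher, and the sums nearly separated the groups (223.6 to 323 and 173 to 224.2), with Ear2 (-1.0 ± 0.18) and Fabp1 (-1.47 ± 0.27, SE) apart downwards. Of alveolar type 1 genes 0 of 6 were higher (median -0.42, sums of 200 to 269 and 148 to 259), with Igfbp2 (-1.28 ± 0.30) and Aqp5 (-0.44 ± 0.15, SE) apart downwards. The sums also overlapped for endothelial (4 of 8 genes higher, 243 to 406 and 293 to 543), alveolar type 2 (2 of 7, 791 to 949 and 692 to 1002) and fibroblast genes (3 of 6, 79.4 to 138 and 115 to 205), with 0 genes apart. Probes too dim for a measured signal, to which Feature Extraction gives a surrogate, made up 20.8% to 24.5% of a knockout array and 15.1% to 20.0% of a wild-type array. Their part was not tested either.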

How the data were processed

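Total RNA of 8 whole lungs was labelled with Cy3 for single-colour arrays, per the labels' protocols. Agilent Feature Extraction 10.7.1.1 quantified the arrays, per the submitters' processing notes, and probes are placed on mm9, per the file headers. The deposited scanner files hold intensity values, of which the processed signal is background-subtracted and detrended. The table deposited by the authors is on the log2 scale. Its columns share 1 distribution with a median of 5.63 and correlate with log2 processed signal at 0.999 or more; the sources used here do not say how it was normalized.

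Control and outlier spots (154 to 245 per array) were left out, as were 21 probes without a usable spot, and no spot was saturated. Spots of a probe were averaged, and each array's 75th percentile was subtracted from its log2 signals. Probes needed 3 arrays of either genotype well above background, and a gene was read by its passing probe of highest mean. This left 24437 genes and 46 of 50 members, whose names are those in the files. Other names were updated through RefSeq (26514 probes by accession, 2602 by symbol, 492 by synonym). The genotypes were compared by two-sided moderated tests of limma 3.58.1 (R 4.3.3), with p-values adjusted over all genes by Benjamini and Hochberg's method and a threshold of 0.05. Tested on simulated data with 200 of 24437 genes changed, this comparison recovered 28% of genes changed by 0.5, 64% by 1, 84% by 2 and 98% by 4 on the log2 scale, with 10 false calls. The number of arrays limits the precision, and 4 mice per group follow from the series' design text.

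The members and lists were chosen with earlier results of these data known. Values in every sample are given for the 10 members with the smallest p, for 2 of each role with the smallest p, for members set by name and for those that were lower, and for other lists the 4 genes with the smallest p are named. Alternatives were normexp background correction (offset 50), quantile normalization, median centring, no filter, a filter on all 8 arrays, the deposited value table, the mean of a gene's probes, the replicate number as a block, array weights, an intensity trend with a robust prior, and leaving out each sample. Figures were drawn with matplotlib 3.10.9.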

Additional observations from a re-analysis of the deposited data

Results flagged for a closer look

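In 3 of the 92 groups of 4 values looked at (46 members in 2 genotypes), a sample stood far from the other 3 of its group, by Dixon's test at the 95% level. Chance flags about 1 in 20 groups. Ccnb1 in knockout replicate 4 read -0.87, below the other knockout samples at -0.56 to -0.52. Mad2l1 in knockout replicate 3 read 0.11, above the others at -0.22 to -0.19. Pttg1 in wild-type replicate 1 read 3.76, below the others at 4.40 to 4.52.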

How the results depend on the processing

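The median difference of the members was above 0 in all 19 settings (0.26 with normexp, 0.31 in the deposited table and with quantile normalization, 0.30 with median centring), and 39 to 43 of 46 members were higher in the settings that tested 46. Members past the threshold numbered 2 with normexp (Kif2c and Melk) and 3 with no filter on dim probes (Kif2c, Melk and Kif22, at 0.74, 0.56 and 0.58, limma adjusted p = 0.0466 for each), and 0 in the other settings. Over all genes, 512 of 24437 passed with normexp and 3505 of 36085 with no filter, beside 15 of 24437 in the main setting. Both settings thus called far more genes of any kind. With median centring, 6 members had groups apart upwards instead of 15, beside 4.08% of all genes. Leaving out a sample gave 0 members called, 13 to 28 higher at an unadjusted p under 0.05, 15 to 25 with groups apart (25 without wild-type replicate 3) and medians of 0.23 to 0.42. Over all genes, 7.48% to 10.5% were then higher at that level. The share apart upwards was 7.02% to 9.84%, and 7.14% without wild-type replicate 3, beside 6.1% with all samples. With fewer samples, groups lie apart more easily for any gene. Of 414 values of named members under an alternative, 407 kept direction and side of the threshold, 5 passed, and 2 turned direction, Mad2l1 with the mean of its probes (-0.19) and Mki67 without knockout replicate 2 (-0.042, and up to 0.15 without another sample); the dimmer Mad2l1 probes differ in sign from the brightest. The mean of the probes gave Cdk1 0.23 instead of 0.51, and of the 11 members with several passing probes 8 had all in 1 direction. The dimmer Cdk1 probe and the dimmest Mad2l1 probe passed the background filter through the wild-type group alone. The dimmer Kif2c probe passed it through the knockout group alone.

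Genes past the threshold over the whole array, 15 here (8 rose and 7 fell), were 512 with normexp, 36 with median centring (13 rose and 23 fell), 3505 with no filter, 126 with the filter on all 8 arrays, 9 with the mean of probes, 338 with array weights, 367 with an intensity trend, and 1 to 19 without a sample; the cause was not tested. Replicate numbers are also slide columns. Same-numbered samples correlated at 0.13, 0.47, 0.0076 and -0.29 after group means were removed, and 1 of 4 wild-type samples correlated best with its own number, so the numbers were not taken to pair samples. With the replicate block 46 genes were called, 0 of them members, and 21 members were higher at an unadjusted p under 0.05. Signal over background limits Aurkb, Cenpf, Ttk and Cdc25c, which were not tested.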
